A study of Arabidopsis thaliana with 6 samples.

Results

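Short constitutive introns were taken as the introns of 80 nt or less for which a single splice junction is listed, and which had at least 30 reads on their exon-intron boundaries and their junction after a red pulse (Rp) and again after a far-red pulse (FRp). The rule used length and read number and no measure of retention. It kept 7315 introns in 4547 genes, of 57879 constitutive introns with the same reads, beside 48745 introns of 81 nt to under 500 nt and 1819 of 500 nt or more. Of 8674 single-junction introns of 80 nt or less, 1359 were under the read limit. The libraries were made from poly(A) RNA of whole imbibed Arabidopsis thaliana seeds of wild type Col-0, with 3 samples after the Rp and 3 after the FRp, labelled as biological replicates. In both conditions the seeds took up water in the dark for 2 h and were exposed to far-red light for 20 min, which lowers the active form of phytochrome, before 3 days of dark stratification at 5°C. They then received a second pulse of 20 min, either the Rp (0.05 µmol per square metre per second, calculated Pfr/P of 0.87) or the FRp (42 µmol per square metre per second, Pfr/P of 0.03), and were collected 12 h later. The study asked how red light that induces germination changes alternative splicing (AS) in the seed, and each intron bears on it through the percent of intron retention (PIR).

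Phytochrome is a photoreceptor that red light converts to its active form, Pfr, and far-red light converts back. In seeds, Pfr promotes germination, during which dormancy and storage programmes give way to growth. Plant introns are much shorter than those of mammals, and many lie near the lower limit of length at which the spliceosome can hold both splice sites, so that the intron is thought to be recognised as a unit. When an intron is not removed (intron retention, IR), the mRNA that keeps it often meets an early stop codon, is held in the nucleus or is degraded, and IR is the most frequent kind of AS in plants.

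The sequences of the 5 introns whose call held under each of the 18 other ways of fitting that were tried are shown first, with the 2 further introns with high retention after the Rp that the text returns to, PYL7 I002 and AT1G15160 I003. All run 5′ to 3′ on the strand of the gene, were read from the RefSeq genome build TAIR10.1, lie between coding exons, and have in capitals the first 6 bases (the donor) and the last 3 (the acceptor). An intron is named by its number in the deposited table, which runs along the chromosome.
AT5G58540 I004, chr5:23664314-23664392, plus strand: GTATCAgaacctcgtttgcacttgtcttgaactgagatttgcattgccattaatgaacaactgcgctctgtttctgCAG
NYC1 I002, chr4:7684893-7684968, minus strand: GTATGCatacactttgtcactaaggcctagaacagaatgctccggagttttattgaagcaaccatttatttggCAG
NYC1 I003, chr4:7685092-7685164, minus strand: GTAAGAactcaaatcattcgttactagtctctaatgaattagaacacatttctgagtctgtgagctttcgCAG
MEB1 I002, chr4:13874445-13874519, plus strand: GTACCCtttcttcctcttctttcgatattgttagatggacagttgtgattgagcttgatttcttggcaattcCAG
AT5G58640 I004, chr5:23699322-23699397, plus strand: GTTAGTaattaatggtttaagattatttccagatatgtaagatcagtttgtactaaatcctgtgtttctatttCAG
PYL7 I002, chr4:447770-447839, plus strand: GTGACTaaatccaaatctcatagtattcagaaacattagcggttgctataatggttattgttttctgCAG
AT1G15160 I003, chr1:5216559-5216637, plus strand: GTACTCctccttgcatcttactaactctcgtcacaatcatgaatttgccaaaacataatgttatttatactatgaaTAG

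To show the range of length and of frame, 4 more introns are shown: the second intron of MEB1 that keeps the reading frame, the pair of shortest introns within coding sequence (59 nt each), and the 68-nt intron of AT4G27090, a gene for cytosolic ribosomal protein L14 and one of the 3 short introns with the most reads.
MEB1 I008, chr4:13875725-13875793, plus strand: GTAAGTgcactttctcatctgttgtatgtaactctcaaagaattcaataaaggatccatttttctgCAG
AT3G23080 I002, chr3:8208309-8208367, minus strand: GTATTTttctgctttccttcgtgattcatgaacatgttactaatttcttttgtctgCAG
AT4G24930 I002, chr4:12821874-12821932, minus strand: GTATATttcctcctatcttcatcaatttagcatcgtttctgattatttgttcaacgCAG
AT4G27090 I002, chr4:13594368-13594435, minus strand: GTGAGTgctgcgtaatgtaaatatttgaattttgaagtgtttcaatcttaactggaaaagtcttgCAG

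Of the 7315 short introns, 7308 coincide with an intron of the RefSeq annotation. GT and AG stand at the ends of 7258 and GC and AG at those of 57. The set runs over 52 to 80 nt with a median of 77 nt, and 1072 of its introns have the limiting length of 80 nt. Coding exons flank 7215 of them (98.6%), 28 lie in 5′ untranslated regions and 56 in 3′ untranslated regions. If retained, 5828 of the 7215 (80.8%) would bring a stop codon in frame within the intron or across its end, 1124 (15.6%) would shift the frame and 263 (3.65%) would keep it open. For introns of 81 nt to under 500 nt these shares were 90.5%, 6.81% and 2.72%. A longer intron holds more codons in which a stop can occur, so these shares depend on length too. Lengths that are a multiple of 3 made up 27.7% of the short introns and 33.7% of the longer ones. The first of these depends on the cut at 80 nt, since numbers rise towards it, with 905 introns of 78 nt, 1024 of 79 nt and 1072 of 80 nt. The median GC content was 33.3% in both classes.

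The donor read GTAAGT, the sequence that pairs fully with U1 small nuclear RNA, at 10.4% of short introns and at 9.08% of those of 81 nt to under 500 nt. The acceptor CAG ended 69.3% of short introns and 67.9% of the longer ones. A run of TTTTT on the strand of the gene occurred in 37.8% of short introns and 55.8% of the longer ones, and CTAAC or CTGAC, forms of the branch point motif, in 11.8% and 16.3%. The longer introns hold more windows in which such letters can occur, so both of these pairs of shares depend on length as well as composition, and a match is not a mapped branch point.

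The 6 libraries held 24234421 to 32387080 reads on genes, of which 703733 to 1036507 lay on short introns after the Rp and 586450 to 882306 after the FRp. The median intron had 39 to 69 reads per Rp library and 33 to 49 per FRp library. All 12 seed markers were detected (cruciferins, 2S albumins and oleosins). Their summed level was 11585 to 19008 CPM after the Rp and 155814 to 183058 CPM after the FRp. Here and below, CPM are gene counts scaled to the library size as corrected by TMM (trimmed mean of M values). Both endosperm markers were detected, at 2241 to 3464 CPM after the Rp and 6715 to 9157 CPM after the FRp. Of 2 pollen and anther genes, 1 had no read in any library and the other had at most 2. The part of these shifts in the retention values was not tested, and in RNA of whole seeds fewer cells of a type and less RNA per cell cannot be told apart.

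Retention of the short introns was low in most and high in a few. PIR was computed in each library as the boundary reads over the sum of the boundary reads and 2 times the spliced reads. Averaged over the 6 libraries, PIR was under 1% in 4402 introns (60.2%), between 1% and 10% in 2620, over 10% in 293 (4.01%) and over 50% in 13. The median intron had a mean PIR of 0.617% and the 99th percentile was 23.9%. In 1474 introns (20.2%) no boundary read was seen in any library, and the spliced reads behind them, a median of 183, allow a PIR of up to 0.813% for the median such intron, where the limit covers counting error only. The most deeply read of these was AT1G69510:I004, in a gene for a cAMP-regulated phosphoprotein 19-related protein, with 0 boundary reads beside 3995 spliced reads, which allows up to 0.0375%.

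Within the set, mean PIR was higher the shorter the introns. The 98 introns of 65 nt or less had a mean PIR of 6.69 ± 0.955% after the Rp and 6.23 ± 0.702% in FRp libraries (SD over 3 libraries each, here and below). In the 611 introns of 66 to 70 nt it was 3.93 ± 0.240% after the Rp, against 3.25 ± 0.451% after the FRp. At 71 to 75 nt (2129 introns) the means were 2.33 ± 0.116% and 2.15 ± 0.0672%, and at 76 to 80 nt (4477 introns) 1.77 ± 0.118% and 1.56 ± 0.0992%, again for the Rp and then the FRp. The mean fell at each step towards 80 nt in both conditions. Over the 6 libraries it was 3.26% for the 184 introns of 70 nt and 2.32% for the 285 of 71 nt. The paper states default alignment settings apart from a maximum intron length of 5000 nt. How these settings affect the finding of spliced reads of the shortest introns, and so their PIR, was not tested. Across the 7315 introns, which share their libraries and in part their genes, length and mean PIR had a Pearson r of -0.14 and a Spearman rho of -0.18. Introns of 80 nt had 1.79% after the Rp and 1.66% after the FRp, and those of 81 nt, just outside the set, 1.41% and 1.32%, which is the largest change between neighbouring lengths from 78 to 83 nt in both conditions. The relation did not go on over all lengths, since the 1819 introns of 500 nt or more had a mean PIR of 3.62 ± 0.326% after the Rp and 3.95 ± 0.225% after the FRp. The 393 introns with 30 to 34 reads in the less covered condition had 2.90% after the Rp and 2.68% after the FRp, and the 368 with 25 to 29 reads, which the rule left out, 2.39% and 2.80%.

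**Figure D1:**
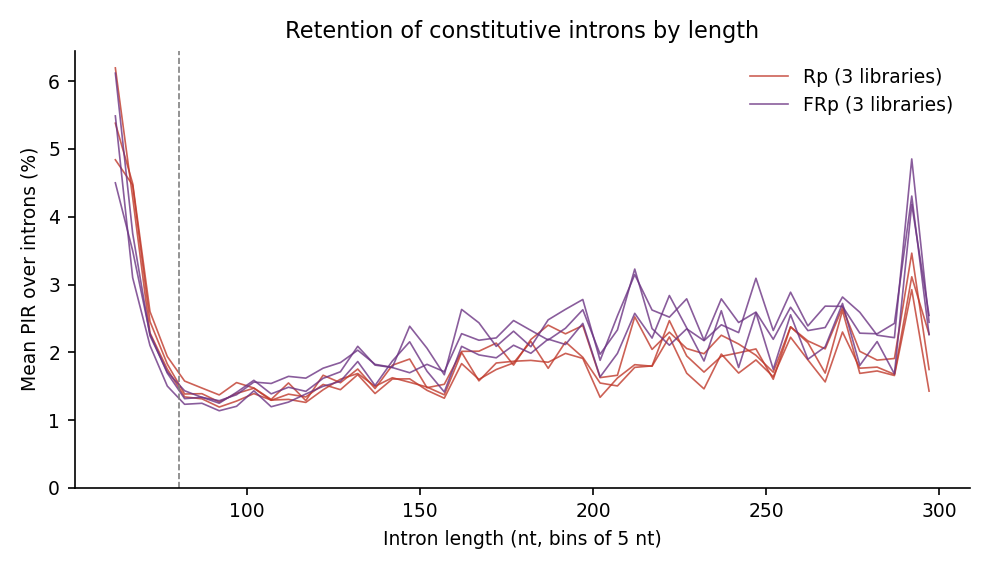
Mean PIR of constitutive introns in bins of 5 nt of intron length (x axis, nt), 1 line per library, with 3 Rp libraries in red and 3 FRp libraries in purple; the y axis is percent and the dashed line marks 80 nt. All 6 libraries fall towards 80 nt, and the Rp and FRp lines change places at longer lengths.

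PIR also differed with the place of the intron in its gene. The 70 short introns that are the only intron of their gene had a mean PIR of 5.87 ± 0.771% after the Rp and 5.51 ± 0.195% after the FRp. First introns (427) stood at 3.52 ± 0.304% after the Rp and 3.03 ± 0.205% after the FRp, last introns (1237) at 2.92 ± 0.0670% and 2.45 ± 0.166%, and the 5574 inner introns at 1.85 ± 0.101% and 1.68 ± 0.108%. The 56 introns of 3′ untranslated regions reached 10.6 ± 0.846% after the Rp and 8.70 ± 0.754% after the FRp, and the 28 of 5′ untranslated regions 7.63 ± 0.315% and 6.70 ± 0.260%. Introns between coding exons averaged 2.08 ± 0.109% after the Rp and 1.85 ± 0.115% after the FRp. The frame made a smaller difference, with 2.32 ± 0.346% after the Rp and 2.09 ± 0.12% after the FRp for the 263 introns that keep it, and 2.05 ± 0.0957% and 1.81 ± 0.115% for the 5828 with a stop. Introns with a full GTAAGT donor (760) had 1.70 ± 0.108% after the Rp and 1.69 ± 0.0875% after the FRp, and the 1344 that share 3 of its 6 bases had 2.78 ± 0.101% and 2.34 ± 0.0739%.

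The mean PIR of the whole set was higher after the Rp. The 3 Rp libraries had 2.17%, 2.30% and 2.07%, and the 3 FRp libraries 1.98%, 2.03% and 1.80%. The groups did not overlap, and the means were 2.18 ± 0.114% after the Rp and 1.93 ± 0.119% after the FRp, a difference of 0.247 percentage points. When the reads of all short introns were pooled in each library, so that well expressed genes weigh most, PIR was 1.23 ± 0.10% after the Rp, against 1.22 ± 0.0975% after the FRp, and the groups overlapped. The difference of the means was 0.217 points in introns with at least 100 reads in each condition.

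At 81 nt to under 500 nt mean PIR was 1.57 ± 0.105% after the Rp, against 1.68 ± 0.114% after the FRp, and the libraries of the conditions overlapped, with pooled values of 0.700 ± 0.0322% and 0.901 ± 0.0916%. Within each library the short introns had the higher mean PIR. The gap between short introns and those of 81 nt to under 500 nt was 0.626, 0.613 and 0.591 points in the Rp libraries, against 0.274, 0.251 and 0.248 points in the FRp libraries. The gap was therefore larger in each Rp library than in any FRp library, and no test was made of it since the length class was chosen with results of these libraries known. At 70 nt or less the mean difference between Rp and FRp was 0.653 points, at 71 to 75 nt 0.181, at 76 to 80 nt 0.214, at 81 to 90 nt 0.103, at 91 to 100 nt 0.0409 and over 100 nt to under 500 nt -0.26 points.

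**Figure D2:**
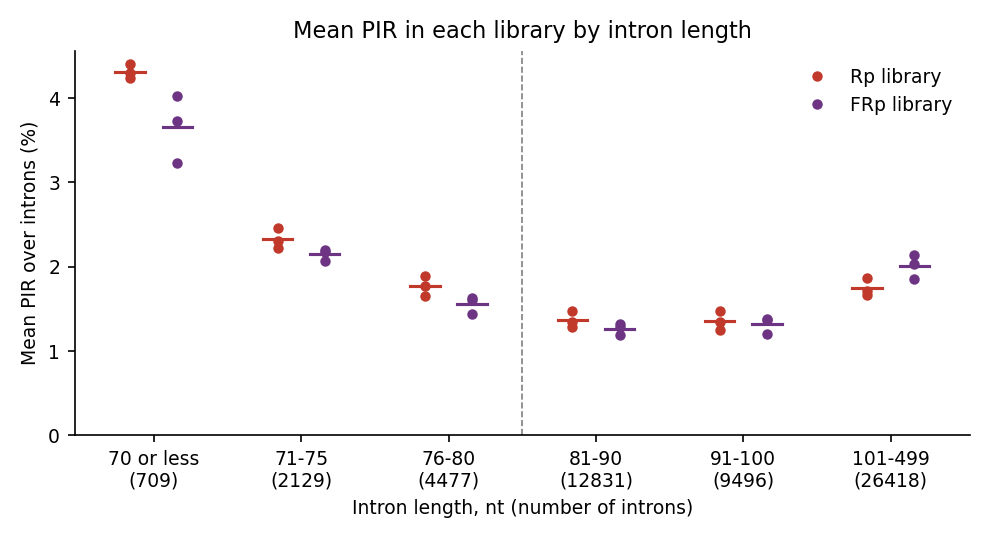
Mean PIR (y axis, %) over all introns of a length step (x axis, nt, with the number of introns) in each Rp library (red, left of each pair) and each FRp library (purple, right); bars are the means of 3 libraries and the dashed line separates the short introns. The 3 Rp libraries lie above the 3 FRp libraries in each step up to 80 nt, and the means change places in the step over 100 nt.

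Single introns were tested with edgeR's quasi-likelihood test on boundary and spliced reads, with p-values adjusted by Benjamini-Hochberg over all 28466 AS events tested in the series. A call required a PIR difference over 0.5 points and an adjusted p under 0.15. With 5 or more boundary reads in all and a host gene above the expression filter, 3600 short introns (49.2%) in 2789 genes could be tested. Of the rest, 3673 had fewer boundary reads and 42 lay in genes under the filter, so the tested introns are those retained enough to be counted. Of the 3600, 77 (2.14%) were called, in 73 genes, beside 2.46% of all events tested. The number that differed at an unadjusted p under 0.05 was 453 of the 3600, beside 3612 of all 28466 events, a similar share. Without Rp replicate 1, 2 or 3 the calls were 28, 41 and 25, and without FRp replicate 1, 2 or 3 they were 31, 32 and 40. Of the 77, 13 were called with every one of these libraries left out.

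After the Rp, retention was higher in 45 of the called introns and lower in 32. Over all events, 1.02% of those tested were called higher and 1.44% lower. The share of calls that were higher was 58.4% for short introns and 35.9% for the 432 called introns of 81 nt to under 500 nt. Introns of 70 nt or less carried 15 of the higher calls and 1 of the lower, while 71 to 75 nt held 11 and 12 and 76 to 80 nt 19 and 19. Just outside the set, 81 to 90 nt held 58 higher and 49 lower calls, and 91 to 100 nt 36 and 39. Over 100 nt to under 500 nt the numbers were 61 and 189, so the lower share of the longer class lay mainly there. The PIR values of the 3 Rp libraries and of the 3 FRp libraries did not overlap in 619 tested short introns (17.2%), against 18.6% of all events tested. Among the called, they did not overlap in 61 of the 77 short introns, beside 620 of the 700 events called in all. The difference was 0.570 to 79.7 points in the introns called higher, with a median of 3.37, and 0.722 to 61.9 points in those called lower, with a median of 5.18. It passed 10 points in 22 introns. Among the introns called higher, 13 had no boundary read in any FRp library, and among those called lower, 10 had none in any Rp library.

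**Figure D3:**
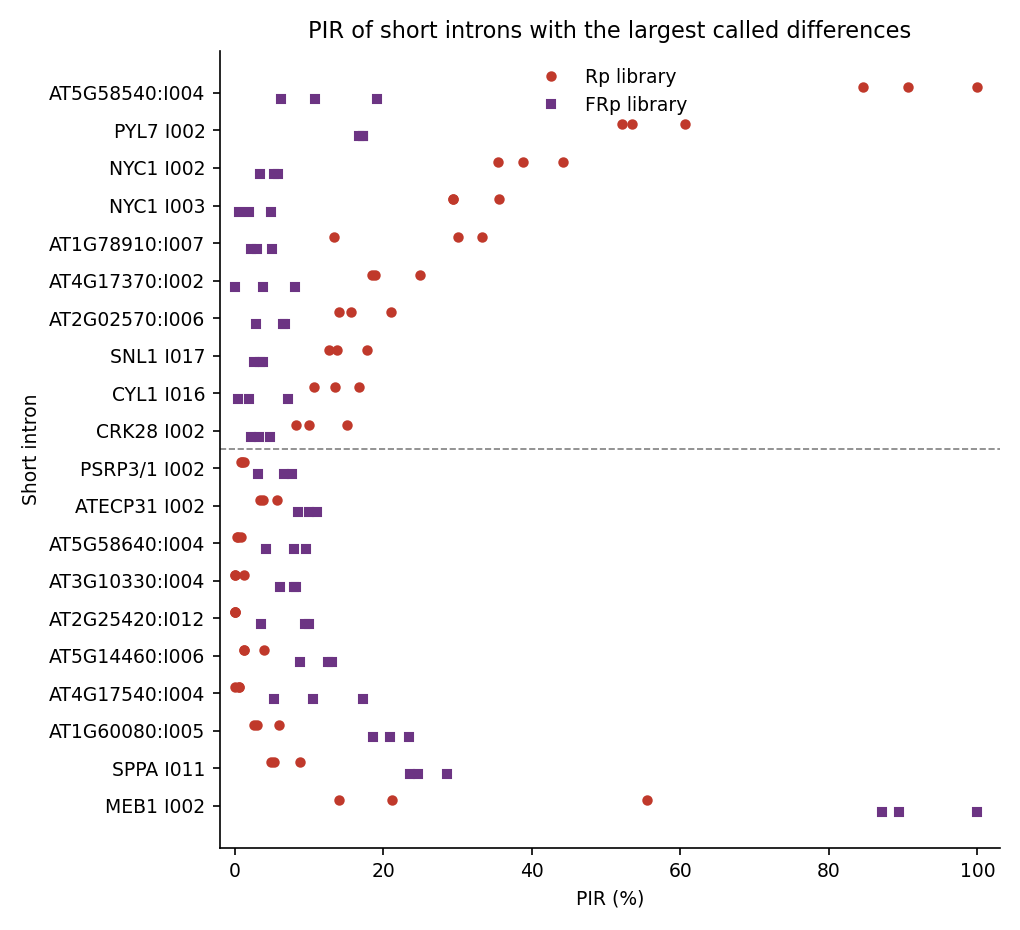
PIR (x axis, %) in each Rp library (red circles, upper row of each pair) and each FRp library (purple squares, lower row) of the 20 short introns named for the largest called differences, 10 higher after the Rp above the dashed line and 10 lower below it. In each intron the 3 Rp values and the 3 FRp values do not overlap.

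The intron with the largest rise was AT5G58540:I004, the third of 4 introns of a protein kinase gene, 79 nt long with a stop in frame. Its PIR was 90.7%, 100% and 84.6% in the Rp libraries, against 6.25%, 19.1% and 10.8% in the FRp libraries. After the Rp nearly all its transcripts kept the intron and after the FRp most had removed it (91.8 ± 7.75% and 12.1 ± 6.55%; log2 ratio of boundary to spliced reads higher by 6.2 ± 0.94 SE; edgeR's quasi-likelihood test, Benjamini-Hochberg adjusted p = 6.43e-08). The spliced reads behind this were 2, 0 and 5 after the Rp, against 30, 19 and 29 after the FRp. Its host gene was not called, at 21.6 CPM after the Rp and 27.5 CPM after the FRp.

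NYC1 encodes chlorophyll b reductase, which starts the breakdown of chlorophyll b and of the light-harvesting complex, and both of its short introns were retained more after the Rp. The 76-nt I002, intron 8 of 9, had 35.4%, 44.2% and 38.8% in the Rp libraries, against 5.77%, 3.33% and 5.26% in the FRp libraries. The 73-nt I003, intron 7, had 29.4%, 35.6% and 29.4% in the Rp libraries, against 1.86%, 0.606% and 4.84% in the FRp libraries. Neither showed an overlap between conditions (log2 ratios 3.72 ± 0.62 SE and 4.29 ± 0.81 SE; edgeR's quasi-likelihood test, Benjamini-Hochberg adjusted p = 1.75e-06 for I002 and 6.54e-05 for I003). Retention of I003 would bring a stop in frame, and that of I002 would shift the frame. NYC1 mRNA was lower after the Rp, at 27.4 CPM against 56.2 CPM.

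PYL7 is a member of the PYR/PYL family of abscisic acid receptors, through which the hormone holds seeds dormant. The 70-nt I002, its last intron, had a PIR of 52.2%, 60.6% and 53.5% in the Rp libraries, against 16.7%, 17.2% and 17.2% in the FRp libraries (edgeR's quasi-likelihood test, Benjamini-Hochberg adjusted p = 0.0222). PYL7 mRNA averaged 9.28 CPM after the Rp and 28.0 CPM after the FRp. A 79-nt intron of AT1G15160, a gene for a MATE efflux carrier, was retained in every read of the Rp libraries (100%, 100% and 100%, from 35 reads in all) and at 9.68%, 37.5% and 33.3% in the FRp libraries (edgeR's quasi-likelihood test, Benjamini-Hochberg adjusted p = 0.00365).

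The other introns with the largest rises lay in genes of varied function. AT1G78910:I007 (76 nt, a pseudouridine synthase family gene) had 30%, 33.3% and 13.3% in the Rp libraries, against 2.22%, 3.03% and 5.00% in the FRp libraries. AT4G17370:I002 (67 nt, an oxidoreductase family gene) had 25%, 18.9% and 18.4% after the Rp, against 3.77%, 8.15% and 0%. AT2G02570:I006 (74 nt, a gene for an RNA-binding protein) had 21.1%, 15.6% and 14% in the Rp libraries, against 2.90%, 6.51% and 6.70% in the FRp libraries. In each of these the Rp values all lay above the FRp values. SNL1 encodes a SIN3-like co-repressor that works with histone deacetylases, and its 65-nt I017 had 13.7%, 12.7% and 17.8% in the Rp libraries, against 3.45%, 2.61% and 3.85% in the FRp libraries. The 69-nt I016 of CYL1, an alpha-N-acetylglucosaminidase family gene, had 16.7%, 10.7% and 13.5% after the Rp, against 1.85%, 0.488% and 7.14%. The 69-nt I002 of CRK28, a cysteine-rich receptor-like kinase, had 9.92%, 8.22% and 15.2% after the Rp, against 3.31%, 4.76% and 2.16%. Among these 6, adjusted p-values of edgeR's quasi-likelihood test, adjusted by Benjamini-Hochberg, ran over 0.0530 to 0.145, and none was called under all of the other fits. With each library left out in turn, AT1G78910:I007, SNL1 I017 and CRK28 I002 were called in none of the 6 fits. AT4G17370:I002 and CYL1 I016 were called in 2 of them, and AT2G02570:I006 in 4.

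The largest fall was in MEB1, which encodes a membrane protein of the ER body of the vacuolar iron transporter family. Its 75-nt I002, intron 2 of 7, had a PIR of 21.2%, 55.6% and 14.1% in the Rp libraries, against 89.5%, 100% and 87.1% in the FRp libraries (log2 ratio -5.01 ± 1.05 SE; edgeR's quasi-likelihood test, Benjamini-Hochberg adjusted p = 0.000664). Most transcripts kept the intron after the FRp and most had lost it after the Rp in 2 of the 3 Rp libraries, with 26, 8 and 61 spliced reads after the Rp and 1, 0 and 2 after the FRp. Its 69-nt I008, the last intron, had 5.39%, 8.64% and 5.71% in the Rp libraries, against 41.7%, 22% and 25% in the FRp libraries (edgeR's quasi-likelihood test, Benjamini-Hochberg adjusted p = 0.0849). The call of I008 held in 1 of the 6 fits with 1 library left out. Both introns are a multiple of 3 long and hold no stop in frame, so that the retained form has no early stop from them. MEB1 mRNA was higher after the Rp, at 45.3 CPM against 10.6 CPM. Of 123 tested introns that keep the frame 3 were called (2.44%, near the 2.14% of all), all lower after the Rp, of which 2 are these introns of MEB1 and the other lies in the protease gene DEG2.

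In AT5G58640, a gene for an Rdx-type selenoprotein, the 76-nt I004 had 0.483%, 0.787% and 0.265% in the Rp libraries, against 7.92%, 9.54% and 4.15% in the FRp libraries (edgeR's quasi-likelihood test, Benjamini-Hochberg adjusted p = 8.21e-05), with 589 reads after the Rp against 593 after the FRp. SPPA encodes a protease of chloroplast thylakoids, and its 80-nt I011 had 4.83%, 5.26% and 8.72% in the Rp libraries, against 23.5%, 24.7% and 28.6% in the FRp libraries. PSRP3/1 encodes a plastid ribosomal protein, and its only intron, I002 of 76 nt, had 0.958%, 1.24% and 0.837% in the Rp libraries, against 7.69%, 6.67% and 3.11% in the FRp libraries. In all 3 genes the Rp values lay below the FRp values. ATECP31, a seed maturation protein gene of the late embryogenesis abundant kind, had 3.77%, 5.74% and 3.42% in the Rp libraries and 10.0%, 11% and 8.54% in the FRp libraries at its 79-nt I002, while its mRNA was at 109 CPM after the Rp and 1599 CPM after the FRp. In this gene retention and mRNA were both lower after the Rp.

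Among the remaining introns, the dynamin gene intron AT4G17540:I004 (74 nt) had 0.535%, 0% and 0.518% in the Rp libraries, against 17.2%, 10.6% and 5.26% in the FRp libraries. AT1G60080:I005 (79 nt, a 3′-5′ exoribonuclease family gene) had 5.88%, 2.94% and 2.59% after the Rp, against 23.4%, 18.6% and 20.8% after the FRp. The pseudouridine synthase family gene AT5G14460 had 2 called introns that went opposite ways. Its 78-nt I006 had 1.18%, 3.94% and 1.27% in the Rp libraries, against 8.82%, 13% and 12.5% in the FRp libraries, and its 79-nt I002 had 1.23%, 3.26% and 2.33%, against 0% in all 3 FRp libraries. The cyclin-like gene intron AT3G10330:I004 (72 nt) had 1.28%, 0% and 0% after the Rp, against 8%, 8.27% and 6.09% after the FRp. AT2G25420:I012 (73 nt, a WD-40 repeat family gene) had no boundary read in the Rp libraries, against 10.0%, 9.43% and 3.57% in the FRp libraries. The calls of AT2G25420:I012, AT1G60080:I005 and AT5G14460:I002 held in none of the 6 fits with 1 library left out. That of AT4G17540:I004 held in all 6. Methyltransferase gene OMTF3 had 2 introns called higher, I004 with 2.14%, 1.66% and 2.01% after the Rp, against 0.292%, 0.315% and 0.414% after the FRp, and I002 with 1.13%, 0.137% and 0.820%, against 0%, 0.217% and 0%, where the groups overlap.

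Retention along the host gene was compared to see whether a short intron changed alone. Of the 73 genes with a called short intron, 67 had more than 1 constitutive intron tested. In 53 of the 67 the called short intron was the only call, in 14 more introns were called, and in 4 every tested intron was called. In NYC1 the 3 introns at the 3′ end were retained together, the 94-nt I001, intron 9, at 41.9 ± 5.00% after the Rp and 3.30 ± 0.652% after the FRp. Intron 6 (I004, 86 nt) had 8.10 ± 2.97% after the Rp and 0.782 ± 0.803% after the FRp, and introns 1 to 3, too little retained to be tested, had a mean of at most 0.952% in either condition. Among the 9 introns of NYC1, those called were introns 6 to 9. In AT5G58540 the 84-nt and 88-nt neighbours of I004 were called in the same direction, with 90.8% and 80.2% after the Rp and 31.6% and 16.6% after the FRp. In MEB1 all 4 constitutive introns were called lower after the Rp, I003 (89 nt) at 16.3 ± 9.15% against 65 ± 13.2% and I007 (85 nt) at 2.36 ± 2.30% against 45.6 ± 17.1%. The 224-nt intron of PYL7 had 19.2 ± 16.7% after the Rp and 2.64 ± 2.85% after the FRp and was not called (edgeR's quasi-likelihood test, Benjamini-Hochberg adjusted p = 0.190).

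**Figure D4:**
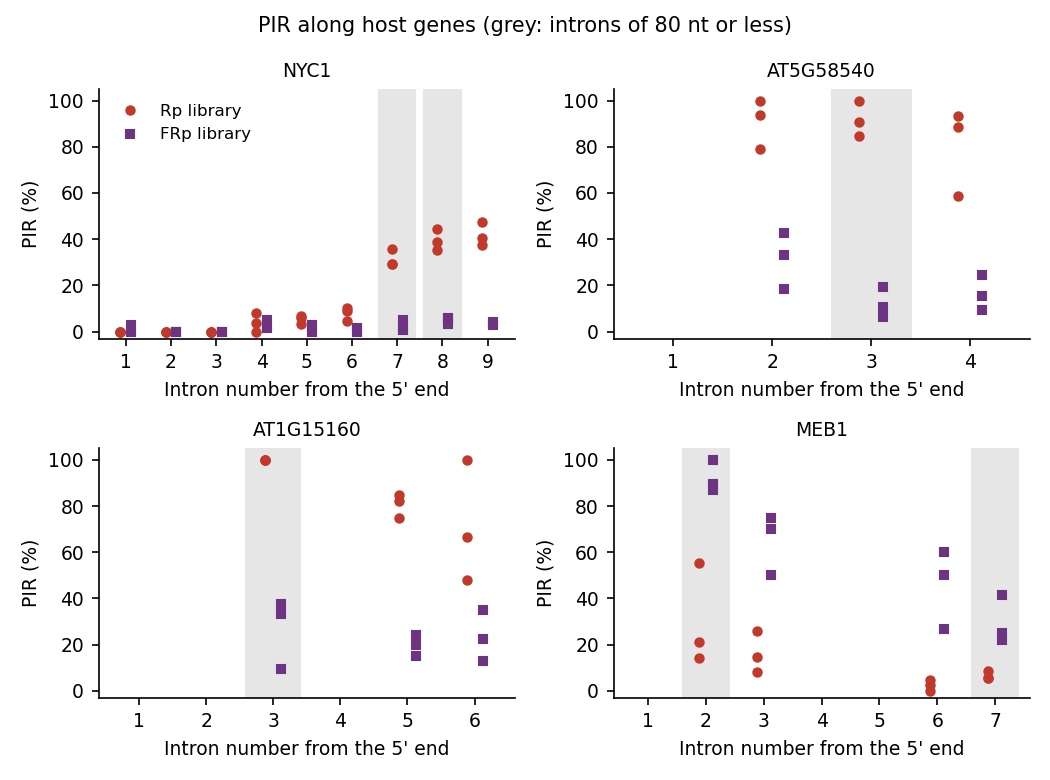
PIR (y axis, %) of the constitutive introns of NYC1, AT5G58540, AT1G15160 and MEB1 by intron number from the 5′ end (x axis), in each Rp library (red circles, left) and each FRp library (purple squares, right); grey bands mark introns of 80 nt or less, and numbers without points are introns outside the constitutive set. Introns 7 to 9 of NYC1 reach 29.4% or more in each Rp library, and each intron shown for MEB1 is lower in every Rp library.

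The level of the host gene was set beside retention, since reads of spliced junctions count for both measures and the 2 are not independent. A gene was called where edgeR gave a fold change over 1.5 with an adjusted p under 0.05, and 55.6% of all genes tested were called. Of the 2789 host genes of tested short introns, 603 were higher and 820 lower after the Rp. The split rests on the scaling between libraries: with library totals in place of TMM (trimmed mean of M values) scaling, 1075 were higher and 437 lower, as the median log2 fold change of all genes was 0.45 with totals and 0.02 with TMM. In host genes called lower, mean PIR was 2.84 ± 0.210% after the Rp, against 2.01 ± 0.146% after the FRp (2080 introns). In those called higher it was 1.73 ± 0.0702% after the Rp, against 2.16 ± 0.157% after the FRp (1446 introns), and in genes not called 1.99 ± 0.109% and 1.81 ± 0.129% (3781 introns). The libraries did not overlap between conditions in the lower and in the higher genes. At 70 nt or less, the difference was 1.44 points in genes called lower and -0.52 points in genes called higher, where the FRp libraries spread by 0.638 points.

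Of the 77 called short introns, 49 lay in genes that changed in the direction opposite to retention, 4 in genes that changed in the same direction and 24 in genes not called. Retention rose in 29 and fell in 2 of the 31 called introns in genes with lower mRNA after the Rp, and it rose in 2 and fell in 20 of the 22 in genes with higher mRNA. Opposite directions made up 92.5% of the 53 called introns with a called host, against 59.7% of the 1876 tested ones. With library totals in place of TMM they made up 84.0% of 50. For called introns of 81 nt to under 500 nt with a called host the share was 73.4% of 286, with 106 higher and 66 lower in genes with lower mRNA. With library totals it was 77.9% of 285 in this longer class, so the contrast between the classes was smaller under that scaling. With any 1 library left out, 17 to 30 called introns went opposite to the host gene and 0 to 2 the same way.

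**Figure D5:**
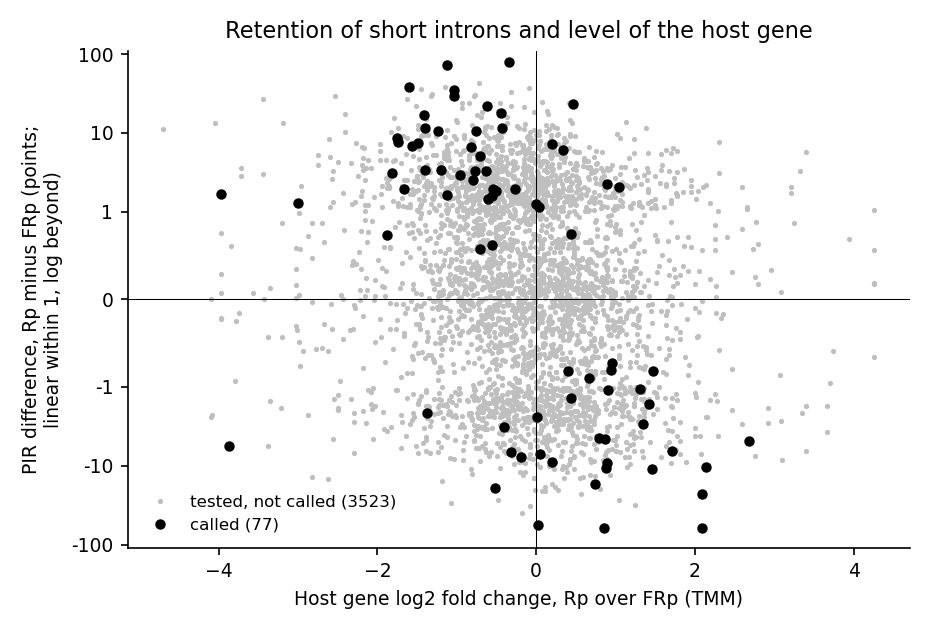
Each point is 1 tested short intron, with the log2 fold change of its host gene (x axis, Rp over FRp, TMM) and its PIR difference (y axis, Rp minus FRp, percentage points, linear within 1 point and logarithmic beyond); black points are the 77 called introns and grey points the others. Most called introns lie at the upper left or the lower right, 49 of the 53 whose host gene was called.

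Genes were grouped by words in their product names, and the calls in each group stand beside 2.14% called, and 453 of 3600 at an unadjusted p under 0.05, over all tested short introns. Of 30 tested introns in genes for splicing factors, none was called by edgeR's quasi-likelihood test, DESeq2 or limma, and 5 had an unadjusted p under 0.05, all higher after the Rp, with a median difference of 0.30 points beside 0.17 over all tested short introns. None of 56 introns in translation factor and tRNA ligase genes was called by any of the 3 tools, with 5 at an unadjusted p under 0.05. Of 19 introns in photosystem and chlorophyll genes, none was called by edgeR or DESeq2 and 1 by limma, and 4 had an unadjusted p under 0.05, all lower after the Rp. NYC1 stands outside this group since its product name does not hold these words. Of 309 introns in genes for kinases and phosphatases, 3 were called (0.971%), all higher (AT5G58540:I004, CRK28 I002 and PK1B I005). The median difference was 0.58 points, and 37 had an unadjusted p under 0.05, 31 higher and 6 lower.

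In the proteasome and ubiquitin group, 2 of 63 introns were called (3.17%, against 2.14% of all tested short introns), both higher. UBC28 encodes a ubiquitin-conjugating enzyme, and its 66-nt I009 had 0.465%, 0.690% and 1.20% in the Rp libraries, against 0.0645%, 0.0655% and 0.0285% in the FRp libraries (edgeR's quasi-likelihood test, Benjamini-Hochberg adjusted p = 1.82e-05). The change is small in points, with 642 to 656 spliced reads per Rp library and 1549 to 2290 per FRp library. Boundary reads were few, at 5, 8 and 10 upstream and 1, 1 and 6 downstream in the Rp libraries. In the FRp libraries they were 1, 2 and 0 upstream and 1, 1 and 1 downstream. On the downstream boundary alone it was not called (edgeR's quasi-likelihood test, Benjamini-Hochberg adjusted p = 0.369). UBC28 mRNA was at 148 CPM after the Rp and 543 CPM after the FRp. The 77-nt I007 of AT1G53780, a 26S proteasome regulatory ATPase gene, had 13.1%, 4.40% and 15% in the Rp libraries, against 3.63%, 3.78% and 2.74% in the FRp libraries. Its adjusted p was 0.111 (edgeR's quasi-likelihood test, Benjamini-Hochberg), and its call held in 1 of the 6 fits with 1 library left out.

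The next groups had 1 or 2 calls each, beside 2.14% of all tested short introns. An unadjusted p under 0.05 in edgeR's quasi-likelihood test was seen in 9 chromatin and DNA introns and 10 ribosomal protein introns. It was seen in 11 heat shock and chaperone introns (3 higher, 8 lower) and 2 seed storage, late embryogenesis and oil body introns. Of 69 introns in chromatin and DNA genes, 1 was called higher and 1 lower (2.90%). HDA3 encodes a plant-specific histone deacetylase, and its 70-nt I005 had 0.885%, 1.17% and 0.694% in the Rp libraries, against 0.297%, 0.218% and 0% in the FRp libraries. The 79-nt I004 of AT1G53250 had no boundary read after the Rp and 0%, 23.8% and 9.68% after the FRp, from 3, 13 and 17 reads. Its groups overlap, and its call held in 3 of the 6 fits with 1 library left out. Of 55 introns in ribosomal protein genes 2 were called (3.64%), where that of PSRP3/1 was lower and AT4G11630:I002 (67 nt, an L19 family gene) was higher, with 0.344%, 1.65% and 1.77% after the Rp and 0% in all FRp libraries. Of 40 introns in heat shock and chaperone genes, 1 was called (2.5%), cpHsc70-2 I004, at 0.448%, 0% and 0% after the Rp and 6.06%, 3.37% and 0% after the FRp. The groups of this intron overlap, and its call held in 1 of the 6 fits with 1 library left out. Of 11 introns in seed storage, late embryogenesis and oil body genes, 1 was called (9.09%), in an oleosin gene, and it was higher. ATECP31, whose I002 was called lower, stands outside this group since its product name does not hold these words. The intron of the oleosin gene AT3G01570 (75 nt) had 2.07%, 3.30% and 1.26% in the Rp libraries, against 1.17%, 0.718% and 0.839% in the FRp libraries, while oleosin mRNA was at 332 CPM after the Rp and 2654 CPM after the FRp.

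Of the 293 short introns with a mean PIR over 10%, 291 were tested, 9 were called higher and 6 lower, and 86 were over 10% in all 6 libraries. The 15 calls of 291 stand beside 77 of 3600 (2.14%) over all tested short introns. Introns of 70 nt or less made up 21.5% of them and 9.69% of all short introns. Their host genes had a median of 17.7 CPM after the Rp and 21 CPM after the FRp, against 32.8 CPM and 36.2 CPM for all short introns. The highest mean PIR was in AT1G15200:I003 (76 nt), with 84.9%, 77.8% and 85.4% in the Rp libraries and 85.8%, 88.7% and 92.6% in the FRp libraries. The groups did not overlap, and the intron was not called (edgeR's quasi-likelihood test, Benjamini-Hochberg adjusted p = 0.580). AT4G10070:I001, which lies inside an annotated exon of a KH domain protein gene, was retained at 75 ± 6.26% after the Rp and 66.5 ± 5.65% after the FRp. In AT2G34310 a 70-nt intron of the 3′ untranslated region had 73.5 ± 4.41% after the Rp and 69.3 ± 6.61% after the FRp.

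The shortest member, the 52-nt I001 of AT4G16710 in the 5′ untranslated region of a glycosyltransferase family 28 gene, had 66.7%, 69.0% and 64.9% in the Rp libraries, against 81.8%, 81.1% and 84.1% in the FRp libraries. Its groups did not overlap, and it was not called on 140 reads after the Rp against 204 after the FRp (edgeR's quasi-likelihood test, Benjamini-Hochberg adjusted p = 0.553). The next shortest were retained less. AT3G23080:I002 (59 nt) had 20.8%, 8.24% and 2.17% after the Rp and 9.09%, 21.1% and 3.70% after the FRp, and AT4G24930:I002 (59 nt, a thylakoid lumen protein gene) 1.45%, 6.12% and 7.07% after the Rp and 3.70%, 10.5% and 0% after the FRp. The 60-nt introns of ATGRIP, a Golgi-associated GRIP domain protein gene, and of AT5G43745 had means of 1.27% and 4.71% after the Rp and 0.372% and 2.46% after the FRp. In these 4 the groups overlapped.

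At the other end stood introns in highly expressed genes, where small differences could be counted. The intron of AT5G35660, a glycine-rich protein gene, had 0.149%, 0.12% and 0.0335% in the Rp libraries, against 0.258%, 0.265% and 0.237% in the FRp libraries. The difference passed the adjusted p (edgeR's quasi-likelihood test, Benjamini-Hochberg adjusted p = 0.00516) and stayed under the 0.5 points a call needs. AT4G27090:I002, of the ribosomal protein L14 gene, had 0.219%, 0.193% and 0.186% after the Rp and 0.0525%, 0.0704% and 0.127% after the FRp, from 9327 to 10720 spliced reads per Rp library and 3808 to 5675 per FRp library. I004 of UBQ1, a gene for ubiquitin fused to a ribosomal protein, had 0.349%, 0.484% and 0.426% after the Rp and 0.199%, 0.277% and 0.302% after the FRp. In each of the 3 introns the groups did not overlap.

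Reads on the 2 boundaries of the short introns were in balance. The ratio of upstream to downstream boundary reads was 0.991 to 1.02 in the 6 libraries. Of 869 short introns with 30 or more boundary reads, 16 had more than 3 times as many upstream and 12 more than 3 times as many downstream. With the upstream boundary alone 17 of the 77 calls held, with the downstream boundary alone 17, and 8 held on each. A read can cover both boundaries of an intron this short, so the 2 counts are not independent.

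The sequences of the called introns were set beside those of all tested ones. GTAAGT stood at the donor of 11.7% of the 77 called introns and 9.78% of the 3600 tested, CAG at the acceptor of 71.4% and 68.8%, and TTTTT occurred in 27.3% and 37.4%. CTAAC or CTGAC occurred in 10.4% of called and 11.2% of tested introns, and the median GC content was 33.8% and 33.3%. These shares are descriptions of small numbers, with 9 called introns behind the first of them.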

How the data were processed

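Paired-end poly(A) RNA-seq of 6 seed libraries was aligned by the authors to the TAIR10 genome. The submitters' processing notes name TopHat2 2.1.1 and SAMtools 1.3. The authors deposited raw counts per gene and, for each AS event, per junction and boundary, all of which were analysed as deposited. The use of strand in counting is not given in the sources used here. No other annotated gene overlaps an intron named by the rule below.

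Conditions and replicate numbers came from the labels. PIR per library was boundary reads over boundary reads plus 2 times spliced reads. The test of events was edgeR 4.0.16 under R 4.3.3 (quasi-likelihood, 1 coefficient per library, inclusion, and inclusion by Rp), with Benjamini-Hochberg adjustment over all 28466 events with a mean of 10 or more reads per library of each condition and 5 on each side. Genes were tested with TMM where mean counts passed 10 and read density 0.05. The prior degrees of freedom of the events were infinite at edgeR's defaults, so their variance came from the trend. Both tests were also run on simulated data with 200 changed features. There the dispersion was fixed and the changed features were drawn from well-read ones, so the run does not cover introns with few reads. Sequences, places and product names came from RefSeq TAIR10.1, matched by coordinates and locus. Python 3.11.15 and matplotlib 3.10.9 made the figures.

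The introns, gene lists and naming rule were chosen with earlier results of these data known. Named were, among called introns without overlap between conditions and with a mean of at least 20 reads per library of each condition, the 10 with the largest PIR difference in each direction, called introns in the listed gene groups, genes with 2 or more called introns, the 5 with the highest mean PIR, the 5 shortest and the 3 with the most reads. DEG2, AT1G69510 and 3 introns in the closing section fall outside this rule and were chosen after their values were seen. Alternatives were the replicate number as a block, robust variances, DESeq2 1.42.0, limma 3.58.1 on log2 ratios, other filters, thresholds, boundaries and lengths, and each library left out. Intervals and limits cover counting error only, as reads carry no molecular identifiers.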

Additional observations from a re-analysis of the deposited data

How the results depend on the processing

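Against 77 called short introns, the count was 76 with robust variances, 75 and 77 with a minimum of 5 or 20 reads per library, and 58 with at least 100 reads in each condition. It was 14 with DESeq2, 20 with limma and a pseudocount of 0.5, 167 with limma and a pseudocount of 1, 20 with no minimum other than 1 read, 20 on the upstream and 17 on the downstream boundary alone, 155 with the mean of both boundaries, 41 with constitutive introns alone in the fit, 22 at an adjusted p under 0.05 and 22 at a difference over 10 points. With lengths of 70 nt or less it was 16 and with 90 nt or less 184. Leaving out 1 library gave 25 to 41. Of the 77, 5 were called under all 18 alternatives of the fit (AT5G58540:I004, NYC1 I002 and I003, MEB1 I002 and AT5G58640:I004). The mean PIR difference of 0.247 points was 0.653 points at 70 nt or less. With the replicate number as a block, 17 introns were called. Libraries of the same number did not deviate together (correlations of 0.00964, -0.00196 and 0.00827 over events), and the labels do not say that a number marks a shared batch, so the block is no pairing. Of the values of named introns under the alternatives, 547 kept their side of the threshold and 241 missed it. Named introns not called in the main fit were called under none of the 18 alternatives. Staying uncalled counts as keeping the side, whatever the direction, so the misses fall mainly on called introns. Named introns that were called held under 5 to 18 of the 18 alternatives. Host genes were called 1406 to 1512 times under all alternatives, against 1423. The causes of these changes were not tested. Depth limits the set: 50.2% of the short introns had fewer than 5 boundary reads and could not be tested.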

Other observations

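Short introns were spread unevenly over genes. Of the 4547 host genes, 2789 held 1 short intron, 1096 held 2 and 1 held 9, the gene ILA (AT1G64790). On chromosomes 1 to 5 the called introns numbered 16, 8, 17, 14 and 22, of 948, 528, 739, 563 and 822 tested.

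Several called introns outside the naming rule, chosen after their values were seen, had large differences on few reads. AT1G64710:I003 (72 nt, an alcohol dehydrogenase family gene) averaged 11.4 ± 2.86% in the Rp libraries and 72.6 ± 34.9% in the FRp libraries (SD, n = 3 each), from 106 reads after the Rp against 32 after the FRp. AT4G09810:I003 (79 nt, a nucleotide-sugar transporter family gene) had 11.1%, 0% and 2.70% after the Rp, against 100%, 33.3% and 52% after the FRp, from 36 reads against 39. AT3G50620:I003 (67 nt) had 42.9%, 12% and 14.3% after the Rp and no boundary read after the FRp. In each of the 3 the groups did not overlap.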
